A study of Mus musculus with 8 samples.

Results

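Ctla2a, Ctla2b, Cst3, Cst7 and Cstb encode small protein inhibitors of cysteine proteases. They were found by gene symbol in the deposited table of mouse macrophage RNA levels and are 5 of the 24940 genes in it. The low levels of Ctla2b under RANKL in these same libraries were known when the genes were listed, so Ctla2b, and with it its near copy Ctla2a, counts as chosen by its RANKL differences. Bone marrow-derived macrophages of C57BL/6 mice aged 6 to 8 weeks were grown with M-CSF, the growth factor of this lineage, at 30 ng/ml. The cells carried a short hairpin RNA named TMBIM6sh or NCsh, and received either RANKL, the cytokine that starts osteoclast formation, at 100 ng/ml for 24 h or no RANKL. This gave 4 groups of 2 libraries: TMBIM6sh with RANKL, TMBIM6sh without RANKL, NCsh with RANKL and NCsh without RANKL. The groups without RANKL are known from the sample names, since the shared protocol text mentions RANKL for every sample. The labels name 1 hairpin on each side, do not spell out NCsh, and do not say whether duplicates came from separate animals or cultures, so loss of Tmbim6 and other effects of the hairpin cannot be told apart and the p-values measure only the spread between these libraries.

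Cysteine proteases of the papain type, the cathepsins, break down protein in the lysosome, process antigen, and in osteoclasts digest bone collagen. Cystatins block them by filling the active site cleft as a tight wedge. Cst3 (cystatin C) is secreted, Cst7 (cystatin F) is made by leukocytes and travels to lysosomes, where it inhibits cathepsin C, and Cstb (stefin B) works inside the cell, in cytosol and nucleus. Ctla2a and Ctla2b resemble the propeptide that keeps cathepsin L inactive rather than a cystatin, and were first described in activated mouse T cells.

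The values are RPKM, reads scaled to the length of the exons and the size of the library, which allows levels of different genes to be compared per length. The steps in the values gave 25475500 to 28595000 tags per library. Tmbim6 stood at 3.25% of the NCsh mean in TMBIM6sh libraries with RANKL and at 3.44% without RANKL. All 8 macrophage markers examined passed the filter on low values, with Lyz2 at 5280 to 8071 RPKM, and so did 4 of 9 osteoclast markers, Acp5 (50.9 to 64.7 RPKM), Atp6v0d2 (6.47 to 14.9 RPKM), Nfatc1 (5.58 to 6.92 RPKM) and Dcstamp (0.262 to 1.61 RPKM). The osteoclast genes Ctsk, Calcr and Oscar reached at most 0.075, 0.011 and 0.04 RPKM, and Ocstamp and Itgb3 at most 0.395 and 0.956 RPKM. Genes with at least 1 RPKM in at least 2 libraries were tested, which left 11040 genes and 4 of the 5 inhibitors (Cst7 did not pass). limma was fitted on log2(RPKM + 1) over all of them, and an adjusted p under 0.05 (Benjamini-Hochberg) counted as called. Log2 differences on this scale understate changes of genes near 0. A two-sided permutation of 2 libraries against 2 cannot give a p below 0.333 and was not used. Statements that groups did or did not overlap are therefore descriptions only. How many of all tested genes have groups that do not overlap was not counted.

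The 5 inhibitors differed widely in level. Averaged over all 8 libraries, Cstb had 413 RPKM and Cst3 392 RPKM, which put them at ranks 126 and 133 of all listed genes. Ctla2b had 82.3 RPKM, Ctla2a 9.55 RPKM and Cst7 0.203 RPKM. The order of Cst3 and Cstb changed between libraries, whereas Ctla2b stood below both, Ctla2a below Ctla2b and Cst7 below Ctla2a in each of the 8 libraries. Cst3 and Cstb together made up 95% to 95.2% of the summed RPKM of the 5 genes in TMBIM6sh libraries with RANKL, 87.1% to 87.8% in TMBIM6sh libraries without it, 91.9% to 92.3% in NCsh libraries with RANKL and 85.2% to 85.3% in NCsh libraries without it.

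**Figure D1:**
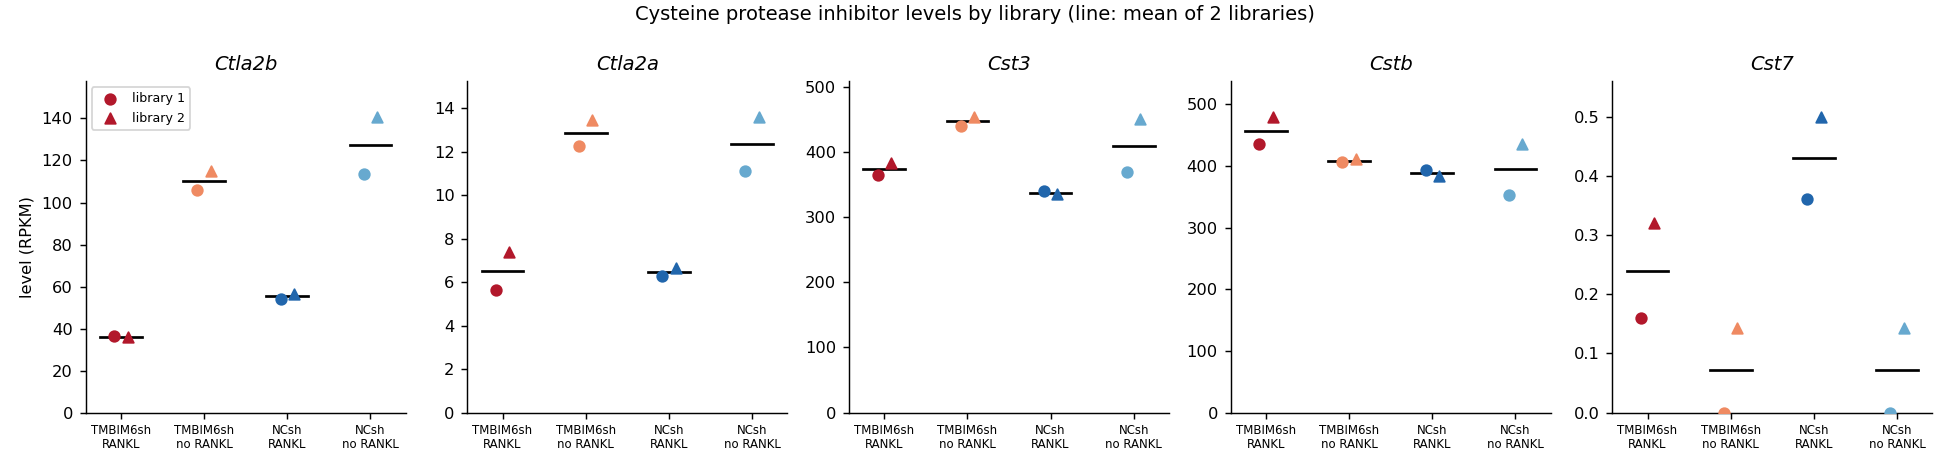
Levels of the 5 inhibitors in RPKM (linear axis from 0, own scale per gene), with circles for library 1, triangles for library 2 and a line at the mean of each group. Ctla2b and Ctla2a are lower in every library with RANKL than in every library without it, and Ctla2b is lowest, with a mean of 36.1 RPKM, in TMBIM6sh libraries with RANKL.

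Ctla2b (NM_007797) lies on chromosome 13 at 60895351 to 60897447 (mm10, minus strand), 36708 bases from Ctla2a (NM_001145799), which spans 60934155 to 60936566 on the same strand. The nearest genes were the placental genes Tpbpb beside Ctla2b, at 0 RPKM in every library, and Tpbpa beside Ctla2a, at most 0.026 RPKM. Farther out, Ctsj and Ctsq, cathepsins of the mouse placenta, were at 0 RPKM, while 4930486L24Rik averaged 2.78 RPKM and Dapk1 23.5 RPKM over the 8 libraries. The pair are close copies. Over the aligned coding bases of the GENCODE M21 transcripts (GRCm38, the assembly behind mm10), 326 of 339 bases were identical (96.2%). Of the windows of 50 bases in the Ctla2b transcript, 94 of 793 (11.9%) occurred unchanged in a Ctla2a transcript. The read length and the handling of reads that match both genes are not given in the sources used here, so the split of tags between the 2 genes is uncertain to that extent.

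The upstream sequences of Ctla2b and Ctla2a are shown because both genes had lower levels with RANKL. They are the 250 bases before the RefSeq start that the table uses (RefSeq, GRCm38.p6), chr13:60897448-60897697 for Ctla2b and chr13:60936567-60936816 for Ctla2a, both on the minus strand. Capitals mark the AP-1 motif TGANTCA.
Ctla2b: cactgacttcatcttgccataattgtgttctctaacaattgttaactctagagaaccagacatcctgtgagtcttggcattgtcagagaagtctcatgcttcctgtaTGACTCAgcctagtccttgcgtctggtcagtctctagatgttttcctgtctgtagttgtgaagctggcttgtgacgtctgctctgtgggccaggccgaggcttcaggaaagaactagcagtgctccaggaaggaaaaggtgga
Ctla2a: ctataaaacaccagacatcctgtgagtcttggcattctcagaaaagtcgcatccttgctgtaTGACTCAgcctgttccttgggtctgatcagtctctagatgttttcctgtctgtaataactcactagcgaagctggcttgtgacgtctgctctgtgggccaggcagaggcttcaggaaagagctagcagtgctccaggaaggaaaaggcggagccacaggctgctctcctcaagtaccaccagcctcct
The windows align over 205 bases, of which 186 (90.7%) are identical. Each holds 1 match to AP-1, at -143 to -137 in Ctla2b and at -188 to -182 in Ctla2a, counted from the start. Of 32851 such windows of RefSeq genes, 6.75% hold this motif on either strand. Of the other motifs searched on both strands (TGACGTCA for CREB, GAGGAA for PU.1, CACGTG for E-box factors, TGGGAA for RBPJ, GGGCGG for Sp1, TATAAA as the core promoter box, and the NF-kB and ISRE motifs), neither window held any, apart from a TATAAA at -249 to -244 in Ctla2a (12.4% of all windows). The motifs were chosen after these sequences had been seen. In the window of Cst3 were 1 PU.1, 1 RBPJ and 1 Sp1 match (23.3%, 21.6% and 32.7% of all windows), and in that of Cst7 1 RBPJ match. Cstb was not in the sequence table.

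Among the 4 tested inhibitors Ctla2b varied most over the 8 libraries (root mean square 0.73 around its mean on the log2 scale). It had 36.24 and 36.03 RPKM in TMBIM6sh libraries with RANKL and 106 and 115 RPKM in TMBIM6sh libraries without RANKL. In NCsh libraries it had 54.2 and 56.6 RPKM with RANKL and 113 and 141 RPKM without RANKL. Every library with RANKL was below every library without it, with 772 to 1357 tags against 2417 to 3373 tags. For Ctla2b and Ctla2a the RANKL differences are a description with no test, for the reason given at the start. The mean of Ctla2b with RANKL was 32.7% of that without RANKL in TMBIM6sh libraries (log2 -1.58, SE 0.0933) and 43.5% in NCsh libraries (log2 -1.18, SE 0.0933). The difference of these log2 differences, TMBIM6sh minus NCsh, was -0.41 (SE 0.132), and -0.25 or -0.56 when NCsh no-RANKL library 1 or 2 was left out.

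Ctla2a, which in mouse inhibits cathepsin L, had 5.62 and 7.37 RPKM in TMBIM6sh libraries with RANKL and 12.3 and 13.5 RPKM in TMBIM6sh libraries without it. In NCsh libraries it had 6.27 and 6.66 RPKM with RANKL and 11.1 and 13.6 RPKM without it. As for Ctla2b, all libraries with RANKL were below all libraries without it. The mean with RANKL was 50.5% of that without in TMBIM6sh libraries (log2 -0.90, SE 0.124) and 52.3% in NCsh libraries (log2 -0.83, SE 0.124). Over all tested genes the median log2 difference was 0.02 in TMBIM6sh libraries and 0.06 in NCsh libraries, and 15.4% and 15.0% of them were called in either direction. By direction, 8.53% were higher and 6.89% lower in TMBIM6sh libraries, and 11.0% were higher and 3.98% lower in NCsh libraries. After median-ratio scaling the NCsh calls split into 787 higher and 850 lower, against 1214 and 439 without it. In each hairpin state 4 of the 8 macrophage markers were lower with RANKL (median log2 -0.23 in TMBIM6sh and -0.25 in NCsh libraries). Of the 4 tested osteoclast markers, 0 were called higher with RANKL in either state. Atp6v0d2 was called lower in both (log2 -0.50 in TMBIM6sh and -0.27 in NCsh libraries). The summed level of 12 T and NK cell genes was 0.169 to 0.382 RPKM with and 0.387 to 0.45 RPKM without RANKL in TMBIM6sh libraries. In NCsh libraries it was 0.915 to 1.1 RPKM with and 1.47 to 1.49 RPKM without RANKL. These sums are close to 0 RPKM. Cd28, the only one of these genes tested, was not called (limma adjusted p = 0.94 in TMBIM6sh and 0.0511 in NCsh libraries). The part of any of these markers in the lower Ctla2a and Ctla2b was not tested, and in bulk RNA fewer cells of a type and less RNA per cell cannot be told apart.

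The hairpins were compared for all 4 tested inhibitors, without and with RANKL. With RANKL, Ctla2b was lower in cells with the TMBIM6sh hairpin, at 36.1 ± 0.152 RPKM against 55.4 ± 1.65 RPKM in NCsh cells (SD, n = 2 each). The log2 difference was -0.60 (SE 0.0933, limma adjusted p = 0.00133), the groups did not overlap, and the call held under all 17 alternatives (adjusted p = 1.6e-05 to 0.0154). The same 4 libraries enter the RANKL values that were known when Ctla2b was listed. Neither this p-value nor the alternatives are therefore independent of that choice. Without RANKL its levels were 110 ± 6.55 RPKM in TMBIM6sh and 127 ± 19.4 RPKM in NCsh libraries (SD, n = 2 each, log2 -0.20, limma adjusted p = 0.164), and the groups overlapped. Leaving out NCsh no-RANKL library 1 gave -0.35 (limma adjusted p = 0.00759).

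Ctla2a was not called between hairpins in either RANKL state, and whether it differs in this from Ctla2b was not tested. With RANKL its log2 difference was -0.00 (95% interval -0.281 to 0.274, limma adjusted p = 0.989), and its sign changed with the scaling (0.07 after median-ratio scaling). Without RANKL it was 0.06 (95% interval -0.219 to 0.336, limma adjusted p = 0.78). Both intervals include changes in either direction. The ratio of Ctla2b to Ctla2a inside a library, a measure chosen after its values were seen, was 6.45 and 4.89 in TMBIM6sh libraries with RANKL, 8.62 and 8.54 in TMBIM6sh libraries without RANKL, 8.65 and 8.49 in NCsh libraries with RANKL, and 10.2 and 10.3 in NCsh libraries without RANKL. Its lowest values were those of the TMBIM6sh libraries with RANKL, where Ctla2a rests on 192 and 250 tags.

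**Figure D2:**
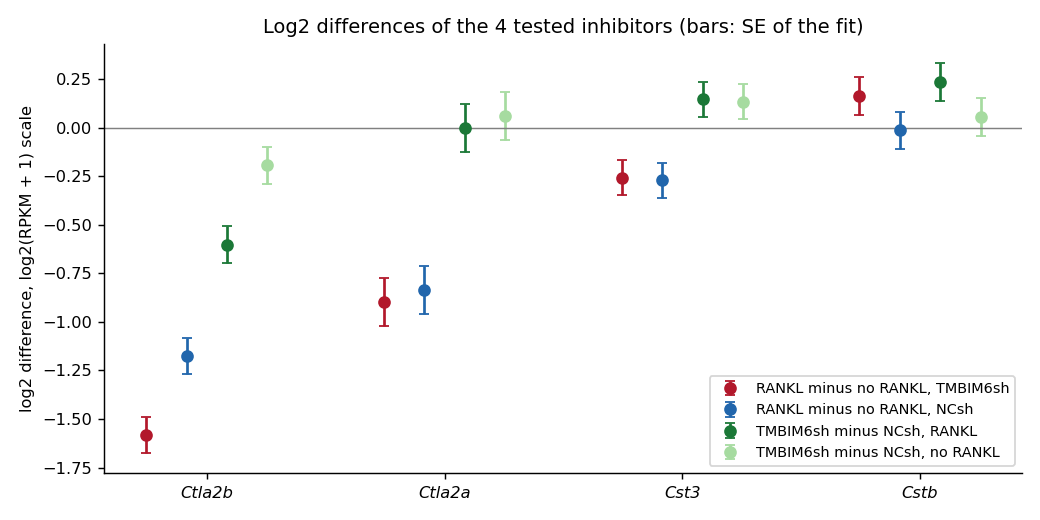
Log2 differences on the log2(RPKM + 1) scale for the 4 tested inhibitors in 4 comparisons, with the SE of the fit as bars. The RANKL differences of Ctla2b (-1.58 and -1.18) and Ctla2a (-0.90 and -0.83) stand far below 0, and between hairpins Ctla2b with RANKL (-0.60) is the value past the threshold.

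In TMBIM6sh against NCsh libraries, 1 of 4 tested inhibitors was called with RANKL, where 28.6% of all tested genes were (8.93% higher and 19.7% lower), and 0 of 4 without RANKL, where 24.2% were (10.4% higher and 13.8% lower). At an unadjusted p under 0.05 the limma counts were 2 of 4 with and 0 of 4 without RANKL, where 40.7% and 36.4% of all tested genes were below it. With voom weights on recovered tags 2 and 0 of 4 were called, where 34% and 29.1% of all tested genes were. The share of the inhibitors called with RANKL, 1 of 4, is near the background, and the 1 called is Ctla2b, whose low RANKL levels were known beforehand. Median-ratio scaling gave 1608 higher and 1621 lower genes with RANKL, against 986 and 2171 without it, and scaling on genes of 500 to 1500 bases gave 1250 and 960 without RANKL, against 1147 and 1526. With RANKL, summed markers were lower in TMBIM6sh libraries for T and NK cells and for neutrophils. They were higher for dendritic cells (1.11 to 1.13 RPKM in TMBIM6sh and 0.899 to 1.06 RPKM in NCsh libraries for 6 genes). Ccr7 carried the dendritic sum, at 0.729 and 0.795 RPKM in TMBIM6sh and 0.531 and 0.71 RPKM in NCsh libraries. How often such sums separate groups of 2 libraries was not tested. Without RANKL, 6 stromal genes summed to 3.23 to 3.54 RPKM in TMBIM6sh and 2.28 to 2.91 RPKM in NCsh libraries, and the dendritic sums overlapped. Other sums were lower in TMBIM6sh libraries without RANKL as well. They were 0.387 to 0.45 against 1.47 to 1.49 RPKM for T and NK cells, and 12.6 to 17 against 23.9 to 29.4 RPKM for neutrophils. For macrophages they were 8584 to 8590 against 9384 to 10784 RPKM, carried by Lyz2 (limma adjusted p = 0.145). Of the 8 macrophage markers 0 were called without RANKL. For 9 osteoclast genes the sums were 69.1 to 69.9 against 80.7 to 86.8 RPKM. Atp6v0d2 was called lower there (log2 -0.54, limma adjusted p = 0.000586). The T and NK cell difference lay mainly in Cd28 (0.085 and 0.146 against 1.454 and 1.228 RPKM). S100a8 carried the neutrophil sums (15.373 and 11.326 against 22.25 and 27.715 RPKM). With RANKL, the summed level of 12 T and NK cell genes was 0.169 to 0.382 RPKM in TMBIM6sh and 0.915 to 1.1 RPKM in NCsh libraries, with Cd28 at 0.072 and 0.118 RPKM in TMBIM6sh and 0.637 and 0.649 RPKM in NCsh libraries, and the 3 Cd3 chains reached at most 0.106 RPKM. For 9 neutrophil genes the sums were 13.6 to 16.4 RPKM in TMBIM6sh and 23.7 to 28.8 RPKM in NCsh libraries, carried by S100a8. Ly6g and S100a9 were at 0 in these libraries, and Mmp8 was not lower (log2 0.29, limma adjusted p = 0.211). For 8 mast cell and basophil genes the sum was 0 in these 4 libraries. Macrophage markers summed to 7498 to 8113 RPKM in TMBIM6sh and 9193 to 9270 RPKM in NCsh libraries with RANKL, a sum carried by Lyz2 (5280 and 5713 RPKM in TMBIM6sh, 6800 and 6859 RPKM in NCsh libraries, limma adjusted p = 0.0823). Of these 8 markers, Csf1r (log2 -0.28) and Mertk (log2 -0.46) were called lower, 0 were called higher, and their median was -0.09 beside -0.07 over all tested genes. Of the 4 tested osteoclast markers, Atp6v0d2 was called lower (log2 -0.77) and 0 were called higher. The part of any of these markers in the lower Ctla2b was not tested.

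Cst3 (NM_009976, chromosome 2 at 148871722 to 148875512, minus strand) encodes the secreted cystatin C, which can hold back bone resorption in mouse cultures. It had 364 and 383 RPKM in TMBIM6sh libraries with RANKL and 440 and 454 RPKM in TMBIM6sh libraries without it. In NCsh libraries it had 341 and 335 RPKM with RANKL and 369 and 451 RPKM without it. The groups with and without RANKL did not overlap within either hairpin, which is given as a description only. The log2 difference was -0.26 in TMBIM6sh libraries (SE 0.0901, limma adjusted p = 0.0853) and -0.27 in NCsh libraries (SE 0.0901, limma adjusted p = 0.0739), and neither passed. Both passed after median-ratio scaling (log2 -0.28, limma adjusted p = 0.0343, and -0.35, limma adjusted p = 0.0151). Leaving out NCsh no-RANKL library 1 gave -0.41 in NCsh libraries, and leaving out library 2 gave -0.13. Without NCsh RANKL library 1 or 2 it was -0.28 and -0.26. The TMBIM6sh difference contains no NCsh library and stayed at -0.26 in these fits. Its SE changed there, since the SE draws on all libraries in the fit. Leaving out 1 TMBIM6sh library gave -0.29 to -0.22 in TMBIM6sh libraries.

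Cstb (NM_007793, chromosome 10 at 78425670 to 78427622, plus strand) encodes the intracellular stefin B. It had 435 and 480 RPKM in TMBIM6sh libraries with RANKL and 406 and 411 RPKM in TMBIM6sh libraries without it. In NCsh libraries it had 394 and 384 RPKM with RANKL and 354 and 437 RPKM without it. The log2 difference with RANKL was 0.16 in TMBIM6sh libraries (95% interval -0.056 to 0.380, limma adjusted p = 0.321), where the groups did not overlap. It was -0.01 in NCsh libraries (95% interval -0.232 to 0.203, limma adjusted p = 0.941), where they did, and there the sign turned when 1 library was left out (0.14 without NCsh no-RANKL library 2). The RANKL responses of the hairpins differed by 0.18 for Cstb (SE 0.137, limma adjusted p = 0.763) and by 0.01 for Cst3 (SE 0.127, limma adjusted p = 0.986), and 0.00906% of all tested genes, 1 gene that was lower, were called for that difference.

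Between hairpins with RANKL, Cstb averaged 458 ± 32 RPKM in TMBIM6sh and 389 ± 6.5 RPKM in NCsh libraries (SD, n = 2 each), with no overlap (log2 0.23, limma adjusted p = 0.102). This difference passed after median-ratio scaling (log2 0.31, limma adjusted p = 0.0211). It also passed after scaling on genes of 500 to 1500 bases (log2 0.27, limma adjusted p = 0.00251) and with voom weights (log2 0.23, limma adjusted p = 0.0129). Leaving out NCsh no-RANKL library 1 or 2, which do not enter this comparison, changed its SE but not its size. Leaving out 1 of the libraries compared gave 0.16 to 0.30. Cst3 had 374 ± 12.9 RPKM in TMBIM6sh and 338 ± 4.18 RPKM in NCsh libraries with RANKL (SD, n = 2 each, log2 0.14, limma adjusted p = 0.262). Without RANKL the log2 differences were 0.06 for Cstb (limma adjusted p = 0.726) and 0.13 for Cst3 (limma adjusted p = 0.325), and in both the groups overlapped. Without NCsh no-RANKL library 1 these 2 values turned to -0.10 and -0.01, and without library 2 the one of Cst3 was 0.28 (limma adjusted p = 0.0162).

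The ratio of Cst3 to Cstb inside a library, chosen after its values were seen, leaves out the scale of the library. It was 0.838 and 0.797 in TMBIM6sh libraries with RANKL and 1.08 and 1.11 in TMBIM6sh libraries without it. In NCsh libraries it was 0.866 and 0.871 with RANKL and 1.04 and 1.03 without it. Cst3 RNA therefore stood above Cstb RNA per length in all 4 libraries without RANKL and below it in all 4 with RANKL. Duplicates were closer to each other than to any library of the other RANKL state. Protein was not measured.

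**Figure D3:**
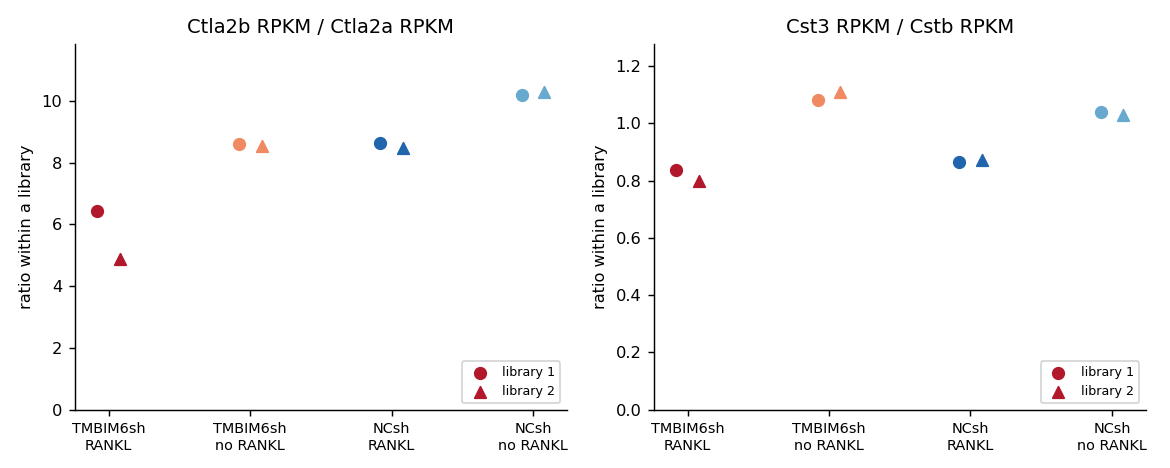
Ratios of RPKM inside each library (linear axes from 0), Ctla2b over Ctla2a on the left and Cst3 over Cstb on the right, with circles for library 1 and triangles for library 2. Cst3 over Cstb is below 1 in the 4 libraries with RANKL (0.797 to 0.871) and above 1 in the 4 without it (1.03 to 1.11).

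Cst7 (NM_009977, chromosome 2 at 150570415 to 150578944, plus strand) encodes cystatin F and was near the limit of detection. It had 4 and 8 tags in TMBIM6sh libraries with RANKL (0.159 and 0.32 RPKM) and 0 and 4 tags in TMBIM6sh libraries without RANKL (0 and 0.143 RPKM). In NCsh libraries it had 9 and 14 tags with RANKL (0.36 and 0.5 RPKM) and 0 and 4 tags without RANKL (0 and 0.143 RPKM). The limit set by 0 tags is 3 tags, or 0.112 RPKM in the TMBIM6sh and 0.116 RPKM in the NCsh library at 0, for counting error only. Libraries with RANKL had more tags in NCsh cells, while in TMBIM6sh cells 1 library of each RANKL state had 4 tags, and all 8 lay below 1 RPKM, so Cst7 was not tested. In a fit of all 18292 genes above 0, with no filter, its log2 difference with RANKL was 0.21 in TMBIM6sh libraries (limma adjusted p = 0.367) and 0.42 in NCsh libraries (limma adjusted p = 0.0845).

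All 5 inhibitor genes are short, with 597 to 1328 bases of exon, and short genes differed between the NCsh libraries without RANKL. In that group library 2 exceeded library 1 by 1.242-fold for Ctla2b, 1.225-fold for Ctla2a, 1.220-fold for Cst3 and 1.235-fold for Cstb. The ratio was wider for Ctla2a in TMBIM6sh libraries with RANKL, at 1.311. Over the 2074 tested genes of 500 to 1500 bases the median difference between these libraries was 0.18 on the log2 scale, and over the 8580 longer genes it was -0.02. In the other groups the median of the short genes was 0.09 (TMBIM6sh with RANKL), -0.01 (TMBIM6sh without RANKL) and 0.01 (NCsh with RANKL). When libraries were scaled on genes of 500 to 1500 bases, an alternative added after this was seen, the SE of Cst3 was 0.0537 instead of 0.0901. The called Ctla2b difference with RANKL was then -0.57 (limma adjusted p = 8.49e-05), a p-value that is again not independent of the choice of Ctla2b. The hairpin difference of Cst3 without RANKL was then 0.20 (limma adjusted p = 0.016).

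**Figure D4:**
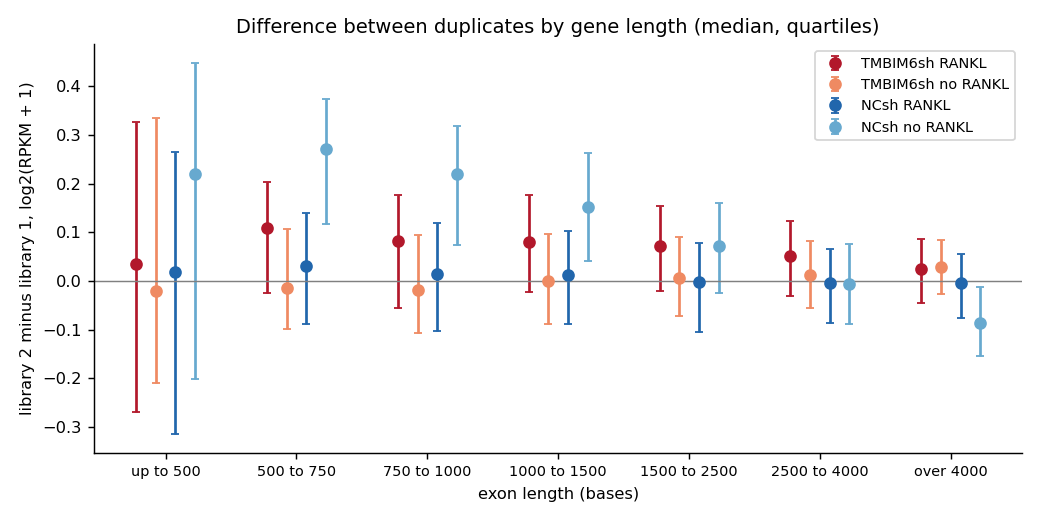
Library 2 minus library 1 of each group on the log2(RPKM + 1) scale, by exon length, with the median as a point and the quartiles as bars. The NCsh libraries without RANKL differ by 0.272 at 500 to 750 bases and by -0.086 over 4000 bases, and the medians of the other 3 groups lie between -0.021 and 0.109.

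The genes with the closest profiles were taken as those with the smallest root mean square difference between centred log2 levels over the 8 libraries, out of 11039 candidates. For Ctla2b they were Hpgd, which breaks down prostaglandins (0.12), and the ribonuclease genes Rnase4 (0.15) and Ang (0.18), which share their annotated start so that their tags may not be fully separate. Hpgd had 0.387 and 0.321 RPKM in TMBIM6sh and 0.941 and 0.654 RPKM in NCsh libraries with RANKL, and 2.58 to 3.46 RPKM in the libraries without RANKL. At these levels the log2(RPKM + 1) scale compresses its differences, so its closeness to Ctla2b is tied to this scale. Hpgd passed the filter only through the libraries without RANKL. Ctla2a came at rank 25 for Ctla2b (0.36). Closest to Ctla2a were the chemokine Cxcl14 (0.09), the immunoglobulin receptor Fcgr3 (0.11) and Milr1 (0.11). Closest to Cst3 were the chloride channel protein Clic1 (0.04), the chemokine Ccl3 (0.05) and the lectin receptor Clec4a2 (0.05). Closest to Cstb were the mitochondrial ribosomal protein gene Mrpl42 (0.04), the nucleotide kinase Nme2 (0.04) and the ribosome-bound Rack1 (0.04). Cst3 and Cstb vary little (0.17 and 0.12 around their means), so many genes lie close to them.

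Further cystatins were nearly silent. Of 26 further genes of the cystatin superfamily listed, 22 were in the table, 0 passed the filter, and 16 were at 0 in all libraries. The highest among them were Fetub (at most 0.354 RPKM), Cst6 (0.329 RPKM) and Stfa3 (0.186 RPKM). Next to Cst3 on chromosome 2, Cst9, Cst13, Cst8, Cst12 and Cst11 were at 0 RPKM in every library. From 8 inhibitors of other families, Cast and Cd74 passed. Cast, which encodes the calpain inhibitor calpastatin, was lower with the TMBIM6sh hairpin under RANKL, at 39.6 ± 1.31 RPKM in TMBIM6sh against 55.2 ± 0.16 RPKM in NCsh libraries (SD, n = 2 each, log2 -0.47, limma adjusted p = 0.000299). Without RANKL the difference of Cast was -0.29 (limma adjusted p = 0.00451), which did not pass when libraries were scaled on genes of 500 to 1500 bases (limma adjusted p = 0.059).

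With RANKL in TMBIM6sh libraries Cast fell by 0.28 on the log2 scale (limma adjusted p = 0.00755), a call lost without TMBIM6sh no-RANKL library 1 or 2 or TMBIM6sh RANKL library 1 (limma adjusted p = 0.0745, 0.0647 and 0.0506). Cd74, the invariant chain, of which a long form inhibits cathepsins, rose by 0.63 in the same comparison (limma adjusted p = 0.0117). That call was lost without TMBIM6sh no-RANKL library 2 or TMBIM6sh RANKL library 1 (limma adjusted p = 0.0954 and 0.0948) and with no filter on low values (0.0721). Cd74 was lower in TMBIM6sh libraries without RANKL (log2 -0.42, limma adjusted p = 0.0477), a call lost under 11 of 17 alternatives.

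Proteases of the kinds that these and other cysteine protease inhibitors bind were also measured. Of 24 listed cathepsins, legumain, calpains and relatives, 12 passed the filter. Among the 12 are Capn1, Capn2 and the calpain subunit gene Capns1, which belong with calpastatin (Cast) rather than with the 5 inhibitors. Ctsb, the most abundant, had 1482 to 2078 RPKM over the 8 libraries, and Ctsl 321 to 528 RPKM. With RANKL, 7 of 12 were lower and 0 higher in TMBIM6sh than in NCsh libraries, with a median log2 of -0.30 beside -0.07 over all tested genes, of which 19.7% were called lower. Lgmn, the asparagine-specific protease legumain, which cystatin C inhibits through a second site, had 180 ± 4.4 RPKM in TMBIM6sh and 308 ± 6.86 RPKM in NCsh libraries (SD, n = 2 each, log2 -0.77, limma adjusted p = 5.23e-05). The others named by the size of the difference were Ctsf (log2 -0.48), Ctsl (log2 -0.43) and Ctsh (log2 -0.33). Also called lower were Ctsc (log2 -0.32), Capn1 (log2 -0.32) and Ctso (log2 -0.29). The Ctso call was lost under 6 of 17 alternatives and the Capn1 call under 1. The call of Ctsf was lost without NCsh RANKL library 2 or TMBIM6sh RANKL library 1 (limma adjusted p = 0.0539 and 0.0593), and that of Ctsh without NCsh RANKL library 1 or TMBIM6sh RANKL library 1 (limma adjusted p = 0.0873 and 0.0691). The part of the lower Csf1r and Mertk levels, given above, in these differences was not tested.

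Without RANKL, 3 of 12 target proteases were lower and 0 higher in TMBIM6sh libraries (median log2 -0.13 beside -0.02 over all tested genes), where 13.8% of all tested genes were lower. They were Lgmn, at 271 ± 0.445 RPKM in TMBIM6sh and 422 ± 29.3 RPKM in NCsh libraries (SD, n = 2 each, log2 -0.64, limma adjusted p = 0.000176), Ctsl (log2 -0.34) and Ctsh (log2 -0.25). The Ctsl call was lost without TMBIM6sh no-RANKL library 1 or 2 (limma adjusted p = 0.0785 and 0.0685), and the Ctsh call under 11 of 17 alternatives. In RANKL against no RANKL within TMBIM6sh libraries, 3 of 12 were lower and 0 higher, where 6.89% of all tested genes were lower and 8.53% higher. They were Lgmn (log2 -0.59, limma adjusted p = 0.000373), Ctsh (log2 -0.45) and Capn1 (log2 -0.26), and the Capn1 call was lost without the intensity trend (limma adjusted p = 0.0514), without TMBIM6sh no-RANKL library 2 (limma adjusted p = 0.207) or either TMBIM6sh RANKL library (limma adjusted p = 0.0787 and 0.107). In RANKL against no RANKL within NCsh libraries, where 3.98% of all tested genes were lower and 11.0% higher, 2 of 12 were lower and 1 higher. Lgmn (log2 -0.45, limma adjusted p = 0.00211) and Ctsh (log2 -0.37) fell, with Ctsh not called without NCsh RANKL library 2 (limma adjusted p = 0.0823), and Ctsf rose by 0.37, a call lost under 10 of 17 alternatives. The median of the 12 was -0.19 in TMBIM6sh and -0.14 in NCsh libraries, beside 0.02 and 0.06 over all tested genes.

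**Figure D5:**
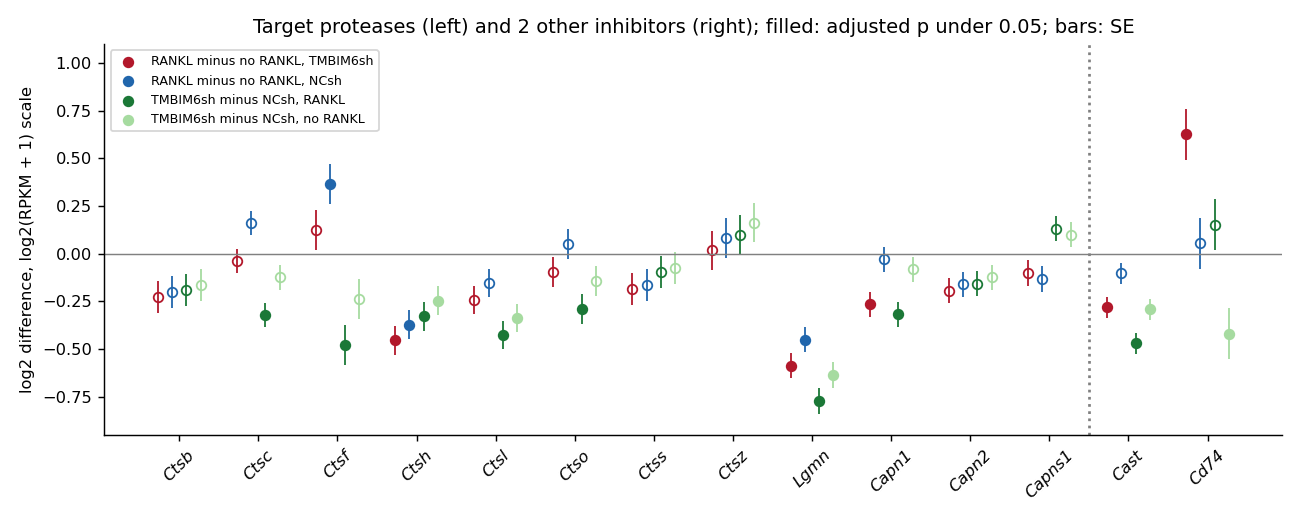
Log2 differences on the log2(RPKM + 1) scale for the 12 tested target proteases and, right of the dotted line, the inhibitors Cast and Cd74, in 4 comparisons. Filled points have an adjusted p under 0.05 and bars are the SE of the fit, and Lgmn is filled and below 0 in all 4 comparisons (-0.77 to -0.45).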

How the data were processed

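Per the file header, the authors deposited RPKM values from HOMER's analyzeRepeats on RefSeq genes of mm10. Tags of both strands over exons were counted, so antisense reads count too, and each gene has 1 entry. The values were divided by exon length and library tags. They are headed FPKM although RPKM was requested. The submitters' processing notes also name HISAT2 and DESeq2. Tags per library were estimated from the steps of the values, and 100% of 1792 to 1917 low values per library were whole within 0.1 tags.

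Group means on log2(RPKM + 1) were fitted in limma 3.58.1 (R 4.3.3) with an intensity trend (4 residual and 5.54 prior degrees of freedom) and Benjamini-Hochberg adjustment over 11040 genes. The members, gene lists and motifs were chosen with earlier results of these data known. Named were the 5 inhibitors, Tmbim6, up to 4 called genes per list and comparison by size, and the 3 closest profiles per inhibitor. For target proteases between hairpins with RANKL all 7 called genes were named. Alternatives were another pseudocount, filters, scalings, a replicate block, fits of 4 libraries, no trend, leaving out each library, and voom weights.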

Additional observations from a re-analysis of the deposited data

How the results depend on the processing

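Log2 differences and adjusted p-values are from limma. The planned count models were not run on the deposited RPKM values, and voom weights on recovered tags were used instead. For Cst3 with RANKL, the log2 value was -0.35 (NCsh) and -0.28 (TMBIM6sh) after median-ratio scaling, -0.27 and -0.29 after scaling on genes of 500 to 1500 bases, and -0.27 and -0.26 with voom weights, all past the threshold, as was -0.26 in the fit of the 4 TMBIM6sh libraries (adjusted p = 0.0259). Between hairpins Cst3 passed after scaling on short genes (0.20 without and 0.18 with RANKL), and Cstb with RANKL passed after median-ratio scaling (0.31), scaling on short genes (0.27) and with voom weights (0.23). The difference of Ctla2a between hairpins with RANKL turned to 0.0652 and 0.0258 under these scalings, and the difference of RANKL responses of Cst3 to -0.0213 on short genes. The fit of 4 libraries called 1020 genes for RANKL in NCsh libraries, against 1653. The difference of RANKL responses was called for 1 gene, and for 8 with no filter, 0 at a minimum of 5 RPKM and 2 without the trend. The causes were not tested. Leaving out 1 library gave 694 to 1520 genes called for RANKL in NCsh and 826 to 2056 in TMBIM6sh libraries, 1396 to 2523 between hairpins without and 1870 to 3558 with RANKL, and 0 to 2 for the difference of responses. The log2 ranges were -0.41 to -0.13 (Cst3) and -0.17 to 0.14 (Cstb) for RANKL in NCsh libraries, and -0.29 to -0.22 for Cst3 in TMBIM6sh libraries. Between hairpins without RANKL they were -0.350 to -0.0402 for Ctla2b, -0.0769 to 0.19 for Ctla2a, -0.0108 to 0.28 for Cst3 and -0.10 to 0.21 for Cstb, and with RANKL -0.17 to 0.17 for Ctla2a and 0.16 to 0.30 for Cstb. For the difference of responses they were -0.56 to -0.25 for Ctla2b, -0.23 to 0.11 for Ctla2a and -0.13 to 0.16 for Cst3. Replicate numbers share only a number: same-numbered libraries deviated with correlations of -0.065 to 0.062. With the replicate block 1608 and 1670 genes were called for RANKL and 2654 and 3128 between hairpins, and no call of an inhibitor changed. There Ctla2b between hairpins with RANKL had a limma adjusted p of 0.000641, which is not independent of the choice of that gene.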
